A study of Homo sapiens with 6 samples.

Results

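The genes described here encode subunits of respiratory complexes II, III, IV and V and cytochrome c in BaF3-T315I cells. They were chosen by gene symbol among the protein-coding genes of the table. The symbols taken were Sdha, Sdhb, Sdhc, Sdhd, Cyc1 and Cycs, those that begin with Uqcr, Cox4 to Cox8 or Atp5, and the mitochondrial symbols mt-Co, mt-Cytb and mt-Atp. This gave 52 of 22413 genes, 46 encoded in the nucleus and 6 in mitochondrial DNA. Complex II had 4 of them, complex III 10, complex IV 18 and complex V 19, and 1 was the cytochrome c gene. The choice by symbol also took Cox7a2l, whose product helps to join complexes into supercomplexes, and Atp5s and Atp5sl, which are not core subunits of the ATP synthase. It missed Usmg5, a small ATP synthase subunit under an older symbol.

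The mRNA of 6 samples was sequenced, 3 labelled control and 3 exposed to I13, which the study describes as an inhibitor of histone deacetylases, at 1.1 µM for 48 h. BaF3 is a murine haematopoietic line that normally needs interleukin 3, and all 6 samples carried stably transfected BCR-ABL with the T315I mutation, so no sample lacked the oncogene. What the control cells received, for how long, and whether the line was 1 clone are not given in the sources used here, nor is it said of these sequenced samples that they came from separate cultures. The study's general statement on independent experiments does not name the sequencing, so p-values measure the spread between these samples, which may be technical. The labels name the organism as human, whereas the genes listed are mouse genes. Levels are in FPKM, fragments per kilobase of gene length and per mapped fragments of the library. Depth was nearly even by the library totals, which were worked back from the FPKM. They were 17722950, 17632514 and 17622311 fragments for the controls, and 17623236, 16762119 and 17506309 for the I13 libraries, each in the order of replicates 1 to 3. Values in sentences keep this order.

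The respiratory chain sits in the inner mitochondrial membrane. Complex II passes electrons from succinate to ubiquinone, complex III passes them on to cytochrome c, complex IV hands them to oxygen, and complex V, the ATP synthase, uses the proton gradient that the pumping complexes build to make ATP. Complex II is encoded by nuclear genes alone, whereas complexes III, IV and V combine nuclear subunits with a few subunits translated from mitochondrial DNA inside the organelle.

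The haematopoietic label of the cells was checked against its markers. The interleukin 3 receptor gene Il3ra stood between 9.07 and 18.2 FPKM over the 6 samples, and the leukocyte antigen gene Ptprc between 10.2 and 15 FPKM. Csf2rb, the common beta chain of the receptor, was the most abundant marker in most samples and stood at 286, 239 and 463 FPKM in the controls and 448, 477 and 839 FPKM in the I13 samples. Of the B lineage markers, Pax5, Ebf1 and Igll1 were at or near 0 in every sample, with no value above 0.0262 FPKM, whereas the B cell receptor genes Cd79a and Cd79b stood between 14.1 and 27.5 FPKM and between 3.57 and 6.94 FPKM.

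It can be seen from the plot of levels that the members spanned several orders of magnitude. The mitochondrial gene mt-Co1, which encodes the catalytic subunit of complex IV, was the most abundant at 9731 ± 814 FPKM in the controls (SD, n = 3), followed by mt-Cytb, the cytochrome b of complex III, at 3311 ± 296 FPKM. Among the nuclear members, Atp5a1 had the highest level, at 527 ± 55.3 FPKM. In complex II, Sdhd was above Sdha in all 6 samples, and the ranges of these neighbours did not overlap.

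**Figure D1:**
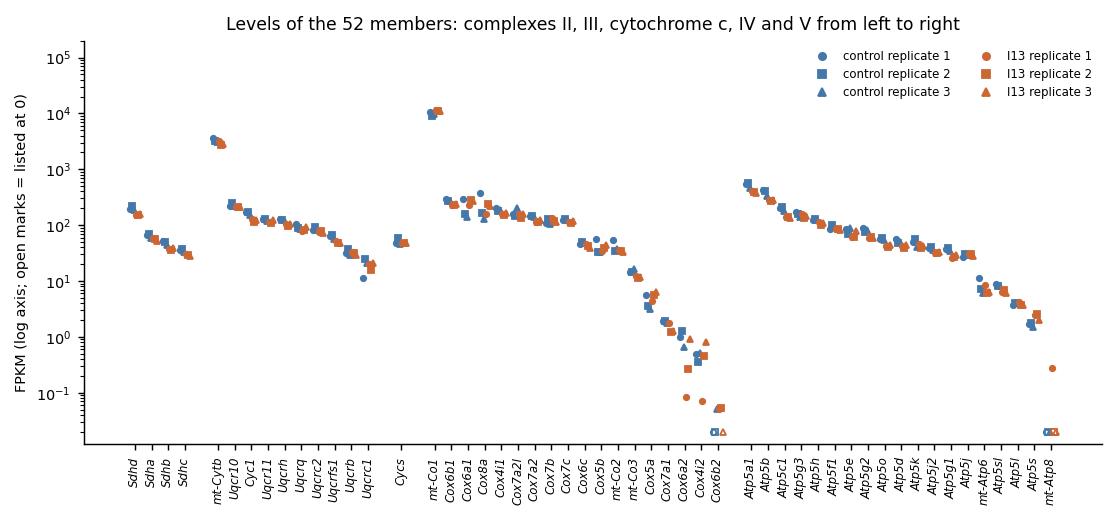
FPKM (log axis) of the 52 members in each of the 6 samples, ordered by mean level within complexes II and III, cytochrome c, and complexes IV and V, with blue marks for controls, orange for I13 and open marks for genes listed at 0. mt-Co1 and mt-Cytb stand above all nuclear members, and Cox6b2 and mt-Atp8 lie at the bottom.

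Nuclear subunits of 1 complex did not share a level. Among those of complex III the order ran from Uqcr10, a small subunit at a mean of 219 FPKM over all samples, to Uqcrc1, a core subunit at 19.0 FPKM, and among the nuclear core subunits of complex V from Atp5a1 at 460 FPKM to Atp5l at 3.90 FPKM. Several neighbours in this order were not separated. Cox6b1 was above Cox6a1 in 3 of 6 samples, Cox7b above Cox7c in 3 and Atp5e above Atp5g2 in 3. Levels per length also depend on the length assigned to a gene, which was 6443 bases for Atp5l and 584 bases for Uqcr10.

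The comparison of I13 with control addressed how I13 exposure changed these transcripts. The summed nuclear members took 0.966, 0.953 and 0.846% of the fragments in control replicates 1, 2 and 3 and 0.765, 0.744 and 0.755% in I13 replicates 1, 2 and 3. Every I13 sample was below every control, and control replicate 3 was the closest to the I13 samples. In bulk samples, fewer cells of a type and less RNA per cell cannot be told apart, and FPKM are relative to the whole library.

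None of the 49 members tested with limma was called at an adjusted p of 0.05 and an absolute log2 fold change of 0.58, where 5 of 12163 genes (0.0411%) were. The same 5 genes pass the adjusted p alone (0.0411%). Cox4i2, Cox6b2 and mt-Atp8 had a mean below 0.5 FPKM and were not tested. At an unadjusted p below 0.05, 20 members were lower after I13 and 1 was higher, that is 40.8% lower, against 10.8% lower and 7.79% higher of all genes. The log2 fold change was below 0 for 41 of 49 members (83.7%), against 50.8% of all genes, and its median was -0.21, against -0.01 over all genes. The I13 samples lay below all controls for 25 members (51.0%) and above all for 2, mt-Co1 and Atp5s, against 15.4% and 9.82% of all genes. These members were chosen with earlier results of these data known, so the counts are a description.

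The differences were small. Only Cox6a2 passed an absolute log2 fold change of 0.58, downward, where 3.34% of all genes passed it downward and 6.08% upward. Its log2 fold change depended on the pseudocount, as its mean was 0.698 FPKM over all samples. With 0.01 in place of 0.1 it was -1.72, and with 1, which is above that mean, it was -0.50, which did not pass. The fold changes are on the log2(FPKM + 0.1) scale, which understates those of low genes. The median change of the 44 tested nuclear members was -0.22 on this scale, or -13.9%.

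With the replicate number as a block, no member was called by both thresholds, where 1.89% of all genes were, but Atp5c1, Atp5a1 and Atp5o fell at an adjusted p below 0.05 in limma (0.0384, 0.0450 and 0.0498). None of the 3 kept this when any 1 pair was left out under the block, with adjusted p from 0.0642 to 0.291 for Atp5c1, from 0.0873 to 0.311 for Atp5a1 and from 0.0961 to 0.316 for Atp5o. These 3 of 49 stood beside 1.24% of all genes lower and 1.75% higher at that p. The unadjusted p was below 0.05 for 24 members lower and 2 higher in this fit, against 14.8% and 13.2% of all genes. In 29 members the I13 sample was below the control of the same number in all 3 pairs, against 27.3% of all genes. Weighting fragment numbers, worked back from the FPKM, by voom with the block gave 16 members at an adjusted p below 0.05, 15 nuclear genes that were lower and mt-Co1, which was higher, beside 5.78% of all genes lower and 6.61% higher.

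**Figure D2:**
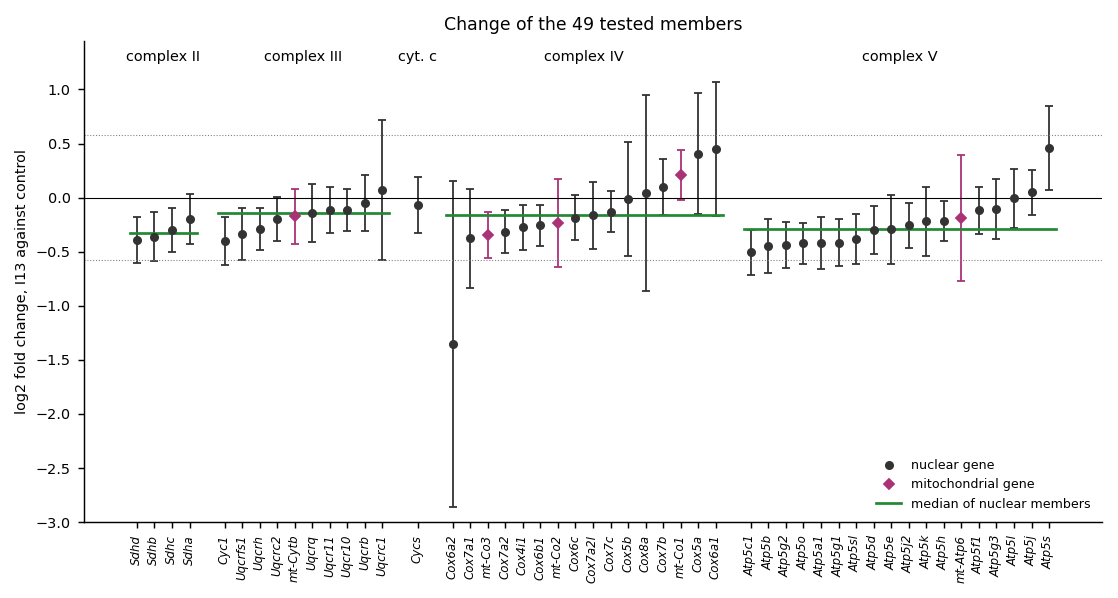
log2 fold change of I13 against control, on the log2(FPKM + 0.1) scale, for the 49 tested members by complex, with 95% confidence intervals from limma, circles for nuclear and diamonds for mitochondrial genes, green lines for the median of the nuclear members and dotted lines at 0.58 on either side of 0. The medians of complexes II and V, -0.33 and -0.29, lie below those of complexes III and IV, -0.14 and -0.16.

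By complex, the median log2 fold change of the nuclear members was -0.33 for complex II (4 genes), -0.14 for complex III (9 genes), -0.16 for complex IV (13 genes) and -0.29 for complex V (17 genes). The mean log2(FPKM + 0.1) of the complex II genes was 6.13, 6.19 and 6.00 in the controls and 5.82, 5.79 and 5.77 in the I13 samples, and that of the nuclear complex V genes was 5.75, 5.75 and 5.64 against 5.50, 5.45 and 5.47. In complexes II and V the groups did not overlap. For complex IV the values were 5.84, 5.59 and 5.46 against 5.35, 5.45 and 5.62, and the groups overlapped. The medians depended on single samples. Without control replicate 1 the median was -0.215 for complex III and -0.239 for complex V, so these 2 were close. Without I13 replicate 2 it was -0.10 for complex IV and -0.245 for complex V. The difference between complexes was not tested.

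**Figure D3:**
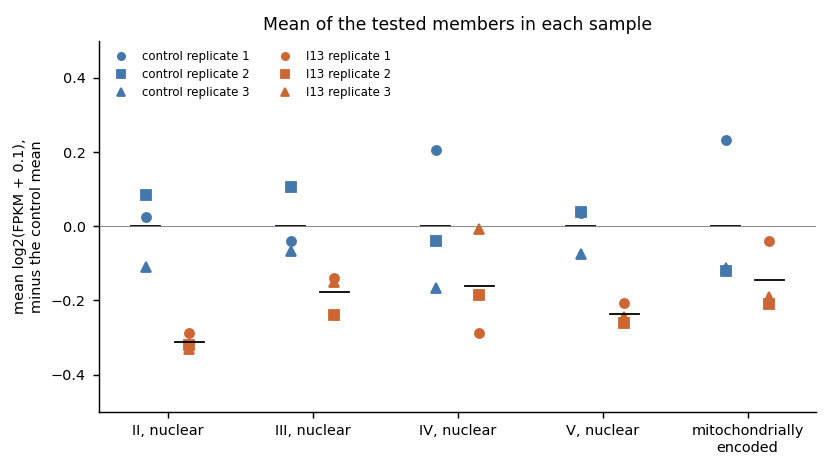
Mean log2(FPKM + 0.1) of the tested members in each sample, minus the mean of the controls, for the nuclear members of complexes II, III, IV and V and for the mitochondrially encoded members, with blue marks for controls, orange for I13 and bars for the group means. The groups are apart for complexes II, III and V and overlap for complex IV and for the mitochondrial genes, where control replicate 1 is the highest.

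All 4 genes of complex II, or succinate dehydrogenase, had lower means after I13, where 50.8% of all genes had a log2 fold change below 0. Sdhd, a membrane anchor that helps to bind ubiquinone, stood at 193, 223 and 189 FPKM in the controls and 151, 152 and 156 FPKM in the I13 samples. Its log2 fold change was -0.39 (SE 0.09, adjusted p = 0.115 in limma) and the groups did not overlap. Sdhb, the iron-sulfur subunit, stood at 51.6, 48.9 and 43.7 FPKM against 36.8, 36.1 and 39.3 FPKM. The groups were again apart, with a log2 fold change of -0.36 (adjusted p = 0.136). The other anchor gene, Sdhc, stood at 36.4, 37.4 and 33.6 FPKM against 30.3, 29.2 and 27.9 FPKM, a log2 fold change of -0.30 (adjusted p = 0.157). Sdha encodes the flavoprotein that oxidises succinate. Its values were 65.6, 69.2 and 59.5 FPKM against 59.6, 57.5 and 51.9 FPKM, which overlapped, with a log2 fold change of -0.20 (95% confidence interval -0.43 to 0.03, adjusted p = 0.319).

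Of the 9 nuclear genes of complex III, 8 had a log2 fold change below 0 and 3 an unadjusted p below 0.05, all lower. The shares of all genes were 50.8% below 0, and 10.8% lower and 7.79% higher at that p. Cyc1, the cytochrome c1 that passes electrons to cytochrome c, stood at 172, 171 and 149.5 FPKM in the controls and 131, 115 and 126 FPKM in the I13 samples. Its groups were apart, with a log2 fold change of -0.40 (SE 0.10, adjusted p = 0.118). Uqcrfs1, the Rieske iron-sulfur protein, and Uqcrh, the hinge protein, were the other pair at an unadjusted p below 0.05, with log2 fold changes of -0.34 and -0.29, and both were picked out after their values were seen. The 5 supernumerary subunits, small proteins around the catalytic core, had a median of -0.12. Uqcr10, the most abundant of them, stood at 222, 246 and 217 FPKM against 212, 209 and 209.6 FPKM, a log2 fold change of -0.12 (adjusted p = 0.477), or -0.06 without control replicate 2.

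Uqcrc1, a core subunit, was the nuclear complex III gene with the highest log2 fold change, 0.07 (95% confidence interval -0.58 to 0.72, adjusted p = 0.918). It stood at 11.5, 24.6 and 20.9 FPKM in the controls and 20.5, 15.9 and 20.9 FPKM in the I13 samples. Control replicate 1 was well below the others, and without it the log2 fold change was -0.26. Cycs, the soluble carrier between complexes III and IV, stood at 47.2, 58.1 and 45.5 FPKM against 48.5, 47.6 and 47.2 FPKM. The groups overlapped, with a log2 fold change of -0.07 (95% confidence interval -0.33 to 0.19, adjusted p = 0.781), and without control replicate 2 it was 0.04.

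The nuclear genes of complex IV were mixed. Of the 10 supernumerary subunits tested, 6 had lower and 4 higher means on the log2 scale, where 50.8% of all genes were below 0. The 3 with an unadjusted p below 0.05 were lower, beside 10.8% of all genes lower and 7.79% higher at that p. Cox6b1, which bridges the monomers of the enzyme, had the highest mean of them over all samples, although it was above Cox6a1 in 3 of 6. Cox6b1 stood at 292, 274 and 267 FPKM in the controls and 229, 226 and 243 FPKM in the I13 samples. Its groups were apart, with a log2 fold change of -0.26 (SE 0.08, adjusted p = 0.172). Cox4i1, a regulatory subunit, stood at 205, 178 and 187 FPKM against 156, 151 and 163 FPKM. Here too no value was shared by the ranges, and the log2 fold change was -0.28 (adjusted p = 0.178). Cox7a2, the broadly expressed form of its subunit, stood at 148, 149 and 140.4 FPKM against 112, 113 and 126 FPKM, a log2 fold change of -0.32 (adjusted p = 0.137).

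Cox6a1, the broadly expressed form of subunit VIa, had the highest log2 fold change of the nuclear complex IV genes. It stood at 296, 161 and 142 FPKM in the controls and 226, 282 and 269.7 FPKM in the I13 samples. Control replicate 1 was the highest of all 6 samples, so the groups overlapped, and the log2 fold change was 0.45 (95% confidence interval -0.17 to 1.07, adjusted p = 0.399). It was 0.77 without control replicate 1 and 0.24 without control replicate 3. In the fit with the block and without both samples of replicate 1 it was 0.87 (adjusted p = 0.0319 in limma), which passed both thresholds. Cox8a, Cox5b and Cox5a, structural subunits picked out after their values were seen, also had their highest or second highest value in control replicate 1. Cox8a stood at 373, 163 and 126 FPKM against 156, 240.4 and 223 FPKM. In 8 of the 49 tested members the highest control was more than 1.5 times the lowest (16.3%), against 24.3% of all tested genes.

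**Figure D4:**
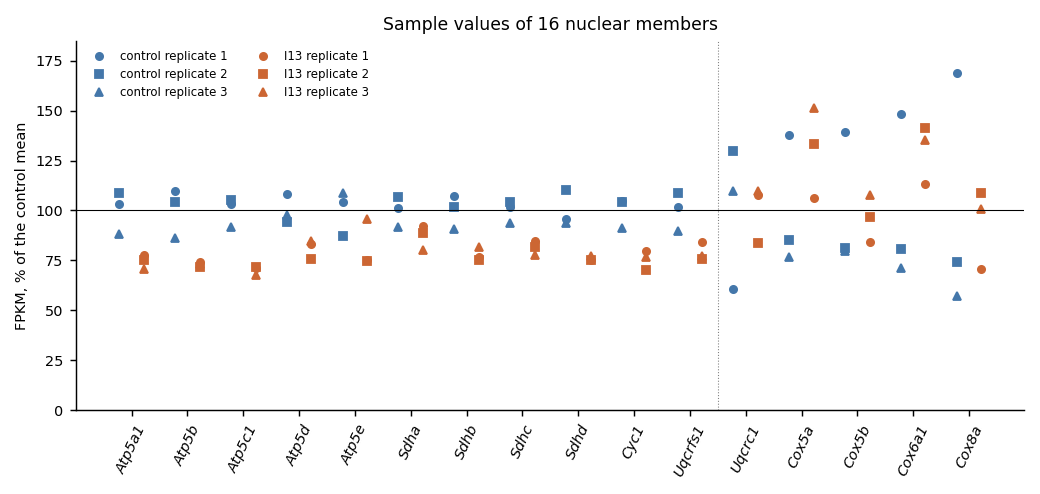
FPKM of 16 nuclear members as a percentage of the mean of the 3 controls (vertical axis from 0), with 1 mark per sample, blue for controls and orange for I13. Left of the dotted line are genes of the ATP synthase head and stalk, complex II and the catalytic part of complex III, most with I13 samples below the controls, and right of it are 5 genes in which the controls themselves spread widely.

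Several subunits of complex IV have a second form that is used in particular tissues. Cox6a2, the heart and skeletal muscle form of subunit VIa, stood at 0.996, 1.251 and 0.668 FPKM in the controls and 0.0835, 0.263 and 0.924 FPKM in the I13 samples, from 50 fragments in all. The groups overlapped, and the log2 fold change of -1.35 had a 95% confidence interval of -2.86 to 0.15 (adjusted p = 0.308). Without I13 replicate 1, the lowest sample, it was -0.78. Cox7a1, the muscle form of subunit VIIa, stood at 1.90, 1.91 and 1.80 FPKM against 1.80, 1.23 and 1.28 FPKM, from 93 fragments. The highest I13 sample and the lowest control were nearly equal, and the log2 fold change was -0.38 (adjusted p = 0.342). Cox4i2, known best from lung, had a mean of 0.448 FPKM over all samples, and Cox6b2, the testis form, had 3 fragments in all. In every sample, the broadly expressed forms Cox6a1, Cox7a2, Cox4i1 and Cox6b1 were above 100 FPKM.

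In complex V, 15 of the 17 nuclear genes had a log2 fold change below 0, and 10 of them had an unadjusted p below 0.05, with 1 higher. Of all genes, 50.8% were below 0, and 10.8% were lower and 7.79% higher at that p. The 5 genes of the F1 head and central stalk, where ATP is made, were all lower, with a median of -0.42. Atp5c1 (ENSMUSG00000025781), the rotating gamma subunit, stood at 203, 207 and 180.1 FPKM in the controls and 140.5, 141 and 133 FPKM in the I13 samples. The groups were far apart, with a log2 fold change of -0.51 (SE 0.09, adjusted p = 0.0989, 0.0384 with the block). Atp5a1 (ENSMUSG00000025428), the alpha subunit, stood at 544, 572 and 465 FPKM against 409, 396 and 374 FPKM. It did not overlap between groups either, at -0.42 (SE 0.10, adjusted p = 0.120, 0.0450 with the block). Atp5b, the catalytic beta subunit, was picked out after its values were seen. It stood at 423, 401 and 332 FPKM against 285, 276 and 282 FPKM, a log2 fold change of -0.45 (adjusted p = 0.120).

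The head is held by a peripheral stalk, in which Atp5o encodes the subunit at its top. Atp5o (ENSMUSG00000022956) stood at 56.6, 59.2 and 54.6 FPKM in the controls and 42.2, 40.9 and 43.9 FPKM in the I13 samples. The groups were apart, with a log2 fold change of -0.42 (SE 0.08, adjusted p = 0.106, 0.0498 with the block). The other stalk genes were Atp5h at -0.21, Atp5f1 at -0.12 and Atp5j at 0.05, chosen after their values were seen, so the 4 stalk genes did not share a value.

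Atp5g1, Atp5g2 and Atp5g3 encode the same mature c subunit, the protein of the rotating membrane ring, with different import signals. Atp5g1 stood at 37.3, 38.4 and 33.8 FPKM in the controls and 26.0, 26.9 and 29.1 FPKM in the I13 samples, a log2 fold change of -0.42 (adjusted p = 0.113). Atp5g2 stood at 87.3, 74.4 and 82.6 FPKM against 60.0, 61.7 and 57.8 FPKM, a log2 fold change of -0.44 (adjusted p = 0.109). Neither gene overlapped between groups. Atp5g3, the most abundant of the 3 and picked out after its values were seen, stood at 175, 157 and 138 FPKM against 159.9, 132 and 144 FPKM. Its groups overlapped, with a log2 fold change of -0.11 (95% confidence interval -0.39 to 0.18).

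The 1 member higher at an unadjusted p below 0.05 was Atp5s, which is not a core subunit. It stood at 1.72, 1.78 and 1.53 FPKM in the controls and 2.48, 2.58 and 1.99 FPKM in the I13 samples, a log2 fold change of 0.46 (SE 0.17, adjusted p = 0.211). Atp5sl, also taken by its symbol and picked out after its values were seen, had a log2 fold change of -0.38 (adjusted p = 0.131).

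Of the 5 tested mitochondrial members, 4 had a log2 fold change below 0 and 1, mt-Co1, above 0, with a median of -0.19. Of the 44 tested nuclear members, 37 were below 0, with a median of -0.22, against 50.8% of all genes below 0. The mean log2(FPKM + 0.1) of the nuclear minus that of the mitochondrial members was -1.755, -1.429 and -1.581 in the controls. It was -1.77, -1.614 and -1.557 in the I13 samples, and the groups overlapped. The gene mt-Co1 (ENSMUSG00000064351) stood at 10560, 8932 and 9702 FPKM in the controls and 11364, 11260 and 11039 FPKM in the I13 samples. Every I13 sample was above every control, with a log2 fold change of 0.21 (95% confidence interval -0.02 to 0.44, adjusted p = 0.305). The adjusted p was 0.120 in limma with the block, 0.275 by voom and 0.0496 by voom with the block. mt-Cytb stood at 3628, 3262 and 3043 FPKM against 3223, 2757 and 2831 FPKM, which overlapped, with a log2 fold change of -0.17 (adjusted p = 0.426), or -0.11 without control replicate 1. The ratio of mt-Co1 to mt-Cytb was 2.91, 2.74 and 3.19 in the controls and 3.53, 4.08 and 3.90 in the I13 samples, so the ranges of the ratio were apart.

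The other mitochondrial members had far fewer fragments. mt-Co3, a core subunit of complex IV, stood at 14.7, 14.3 and 16.1 FPKM in the controls and 12.1, 11.3 and 12.02 FPKM in the I13 samples, a log2 fold change of -0.35 (SE 0.09, adjusted p = 0.137), with groups apart. mt-Co2, the subunit that takes electrons from cytochrome c, stood at 54.7, 34.2 and 37.1 FPKM against 36.3, 35.1 and 33.3 FPKM. Control replicate 1 alone was high, and the log2 fold change was -0.24 (adjusted p = 0.499), or -0.03 without that sample and -0.37 without control replicate 2. mt-Atp6, the proton channel subunit of complex V, stood at 11.4, 7.16 and 6.00 FPKM against 8.50, 6.13 and 6.38 FPKM. Its groups overlapped, the log2 fold change was -0.19 (adjusted p = 0.720), and without control replicate 1 it was 0.08. mt-Atp8 was listed at 0 in all samples except I13 replicate 1, which had 1 fragment.

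**Figure D5:**
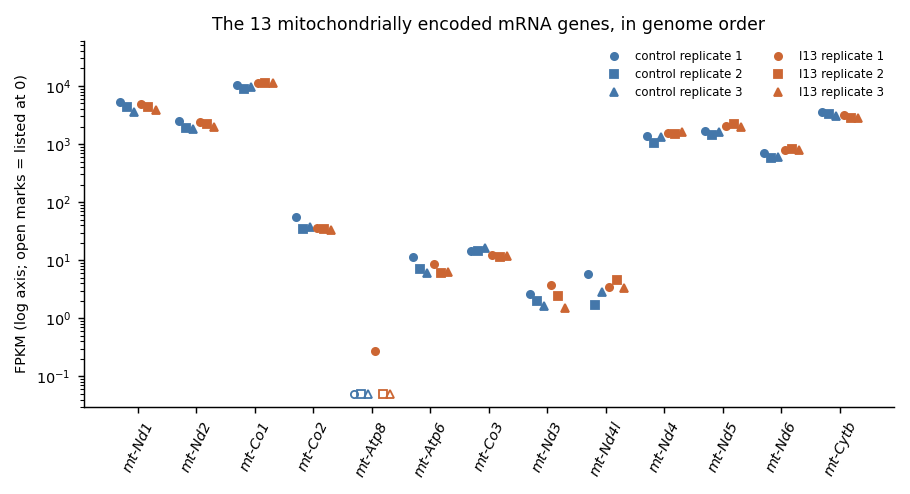
FPKM (log axis) of the 13 mitochondrially encoded mRNA genes in each sample, in the order in which they lie on mouse mitochondrial DNA, with blue marks for controls, orange for I13 and open marks for genes listed at 0. The 6 neighbours from mt-Co2 to mt-Nd4l are at 54.7 FPKM or lower in every sample, and the other genes are at 576 FPKM or higher.

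The low members lie side by side on mitochondrial DNA. The 6 neighbours mt-Co2, mt-Atp8, mt-Atp6, mt-Co3, mt-Nd3 and mt-Nd4l were at 54.7 FPKM or lower in every sample, whereas the other mitochondrial mRNA genes were at 576 FPKM or higher. Near-identical copies of mitochondrial DNA exist in nuclear chromosomes, and how fragments shared between copies were counted is not given in the sources used here, so the levels of these 6 genes are uncertain. The part of such copies in these values was not tested.

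Most mitochondrially encoded complex I subunits are cut from the same long transcript as the members above. mt-Nd4, mt-Nd5 and mt-Nd6 were higher at an unadjusted p below 0.05, where 7.79% of all genes were, with log2 fold changes of 0.31, 0.40 and 0.34. mt-Nd1 and mt-Nd2 had log2 fold changes of 0.0011 and 0.09, and mt-Nd3 and mt-Nd4l are among the 6 uncertain genes. The median of the 7 was 0.28, the value of mt-Nd4l itself (SE 0.39). mt-Nd5 had the lowest p of them, at 1710, 1405 and 1590 FPKM in the controls and 2009, 2188 and 1983 FPKM in the I13 samples. Its log2 fold change was 0.40 (SE 0.10, adjusted p = 0.131). All mitochondrial genes together took 3.45, 2.89 and 2.97% of the fragments in the controls and 3.56, 3.44 and 3.32% in the I13 samples. The groups overlapped, and the share was higher after I13 in each of the 3 same-numbered pairs.

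Other genes that serve these complexes were taken from lists. Of 28 tested assembly factors, which insert cofactors and join subunits, 18 were lower and 10 higher on the log2 scale, with a median of -0.09. At an unadjusted p below 0.05 there were 5 lower and 1 higher, beside 10.8% and 7.79% of all genes, and none was called. Cox10, which takes part in making the heme of complex IV, had the lowest p, with a log2 fold change of -0.41 (adjusted p = 0.116). With the block, Uqcc3, an assembly factor of complex III, and Surf1, one of complex IV, fell at adjusted p = 0.0478 and 0.0495 in limma. At an adjusted p below 0.05 in that fit, 1.24% of all genes were lower. Without the block the adjusted p of Uqcc3 and Surf1 was 0.14 and 0.141. Their log2 fold changes were -0.39 and -0.49, and both were picked out after their values were seen.

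The tricarboxylic acid cycle feeds electrons into the chain. Of its 13 tested enzyme genes, 11 were lower, with a median of -0.23, and 5 lower and 0 higher had an unadjusted p below 0.05, beside the same 10.8% and 7.79% of all genes. Idh3g, a subunit of isocitrate dehydrogenase, stood at 65.7, 61.3 and 59.3 FPKM in the controls and 41.8, 42.2 and 46.1 FPKM in the I13 samples. The groups were apart, with a log2 fold change of -0.52 (SE 0.09, adjusted p = 0.0963, 0.0451 with the block). A list for the passage of ATP and phosphate had 7 tested genes, namely the inner membrane carriers Slc25a3, Slc25a4 and Slc25a5, the outer membrane channels Vdac1, Vdac2 and Vdac3, and Atpif1, an inhibitor of the ATP synthase. Atpif1 had a log2 fold change of 0.29 (adjusted p = 0.445) and the other 6 were below 0. The median was -0.28, and 4 had an unadjusted p below 0.05, all lower, where 10.8% of all genes were. Slc25a5, an ADP and ATP carrier, stood at 349.5, 368 and 337 FPKM against 260.3, 250.0 and 267 FPKM. It was lower in every I13 sample, at -0.44 (SE 0.08, adjusted p = 0.0989, 0.0447 with the block).

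Genes that control mitochondrial DNA and mitochondrial genes showed no common direction. Of 24 tested genes for maintenance and transcription of mitochondrial DNA and stability of its mRNA, 11 were lower and 13 higher, with a median of 0.02, and Mterf1a, a termination factor, had the lowest p, with a log2 fold change of 0.46 (adjusted p = 0.261). Of 12 nuclear regulators, 7 were lower and 5 higher, with a median of -0.08. Hcfc1, a transcriptional cofactor, had the lowest p of them, with a log2 fold change of -0.39 (adjusted p = 0.140, 0.0464 with the block). None of these genes was called in either fit.

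Markers of other cell types were measured beside these values. The table held 11 haematopoietic markers, of which 7 were tested, and their summed FPKM was 609, 484 and 944 in the controls and 969, 1020 and 1720 in the I13 samples, nearly all of it from Csf2rb and its relative Csf2rb2. Cd79b had a log2 fold change of -0.15 and the other 6 were above 0. With the block, Csf2rb and Csf2rb2 were called elevated, with log2 fold changes of 0.83 and 1.02 (adjusted p = 0.0313 and 0.0312 in limma), and without it neither was (adjusted p = 0.220 and 0.165). Among the erythroid markers, Hba-a1, an alpha globin gene, stood at 1.18, 0.210 and 0.559 FPKM against 5.66, 2.94 and 2.11 FPKM and was called elevated with the block at a log2 fold change of 2.40 (adjusted p = 0.0384 in limma, 0.116 without it). The summed T cell, fibroblast and muscle markers were each at 0.394 FPKM or lower in every sample, and the epithelial markers were not analysed here. The part of these markers in the results on the respiratory genes was not tested.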

How the data were processed

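The authors deposited FPKM values for each of the 6 samples, that is, scaled by gene length and by library depth, without pooling of replicates. Per the labels, poly(A) libraries were made with a stranded kit and Trimmomatic, HISAT2, HTSeq and Cufflinks were used, with hg38 as the build, although the genes are mouse genes. Versions and the handling of strand and of shared fragments are not given in the sources used here. Samples were grouped by their labels, and 0 value columns were left without a sample. A mouse genome was not used here, so no positions or sequences are given.

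FPKM were compared as log2(FPKM + 0.1) with limma 3.58.1 in R 4.3.3, with eBayes and a trend, in the 12163 genes with a mean of at least 0.5 FPKM over all samples, with Benjamini-Hochberg adjustment over all of them. With 3 samples against 3, an exact permutation test of 1 gene cannot go below p = 0.1, so none was run. Whole fragment numbers and a whole length that give the FPKM within 0.001 fragments were found for all 22413 genes, which gave the library totals, and these fragments entered voom as an alternative. The calculation was run on simulated data with changes much larger than those of most members and no replicate effect. That run cannot show how the fits behave for small changes or paired samples. Deviations of same-numbered samples from their group means correlated at 0.145, 0.301 and 0.219 across genes, against -0.258 to 0.0503 for other pairs, so the replicate numbers in the labels were taken to pair the samples.

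The members and lists were chosen with earlier results of these data known. The summed level of the erythroid markers and 1 gene of that list are not reported here. Genes named with values are the mitochondrial members, the 4 Sdh genes, Cyc1, Cycs, the most abundant and the most changed nuclear members of each complex with a mean of at least 1 FPKM, the 6 members with the lowest p, members called in either fit, tissue forms with a relative at 0.5 FPKM or more, and in each other list the gene of lowest p and any called. Genes named beyond this rule, which include other members of the short lists, were chosen after their values were seen. Alternatives were other pseudocounts, filters and scalings, eBayes without a trend, the block, voom, and leaving out each sample or pair. Python 3.11.15 with matplotlib 3.10.9 drew the figures.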

Additional observations from a re-analysis of the deposited data

How the results depend on the processing

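Without the replicate block, 4 of all tested genes were elevated and 1 was decreased. A pseudocount of 0.01 gave 2 and 0, median-ratio scaling 2 and 0, no filter 3 decreased, eBayes without a trend 3 decreased, and rescaling without the mitochondrial genes 0 decreased. The replicate block gave 166 elevated and 64 decreased and voom with the block 375 and 128. Leaving out any 1 sample gave 0 and 0, and leaving out pairs 1, 2 and 3 under the block gave 78, 0 and 0 elevated and 5, 0 and 0 decreased. No member was called under any of the 20 alternatives except Cox6a1, the 1 member elevated under the block without pair 1. The causes were not tested.

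Members higher at an unadjusted p below 0.05 numbered 2 in place of 1 with rescaling to TPM, with rescaling without the mitochondrial genes, with the replicate block and with voom and the block, ranged from 0 to 2 without any 1 sample, and were 5 and 0 under the block without pairs 1 and 2. Members lower at that p were 20 and ranged from 15 to 26 over the alternatives. The median log2 fold change under the block without pair 3 was -0.313 for the nuclear members and -0.349 for those of complex V, which ranged from -0.34 to -0.239 without any 1 sample. For complex III it was -0.219 without pair 1 and -0.218 without pair 3. The median of the mitochondrial members, -0.186 over all samples, was -0.03 without control replicate 1 and -0.297 without control replicate 3. All medians stayed below 0.

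Of 499 comparisons of 25 single members, 6 changed sign. Uqcrc1 ranged from -0.257 (without control replicate 1) to 0.289 without any 1 sample and was -0.313 under the block without pair 1, Cycs ranged from -0.134 to 0.043 and was 0.045 under the block without pair 2, and mt-Atp6 ranged from -0.381 to 0.078. Depth limits the genes under about 1 FPKM, such as Cox6a2.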

Other observations

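The ribosomal RNA genes of mitochondrial DNA were measured beside the members, although poly(A) selection is not designed to keep their transcripts. mt-Rnr1, the small ribosomal RNA, stood at 260, 196 and 201 FPKM in the controls and 169, 156 and 166 FPKM in the I13 samples, so every I13 sample was below every control, with a log2 fold change of -0.41 (adjusted p = 0.161 in limma). mt-Rnr2, the large ribosomal RNA next to it, stood at 463, 405 and 364 FPKM against 479, 409.6 and 400.3 FPKM, which overlapped, with a log2 fold change of 0.07 (adjusted p = 0.796). Usmg5, the ATP synthase subunit that the choice by symbol missed, stood at 219, 259 and 208 FPKM against 225, 197 and 199 FPKM and overlapped too, with a log2 fold change of -0.14 (adjusted p = 0.531). The 3 genes were picked out after their values were seen.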
